A study of Mus musculus with 15 samples.

Results

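The isoenzymes of late glycolysis were followed in single-cell RNA sequencing of the mouse testis. The genes were the lactate dehydrogenases Ldha, Ldhb and Ldhc, the phosphoglycerate kinases Pgk1 and Pgk2, the glyceraldehyde-3-phosphate dehydrogenases Gapdh and Gapdhs, the aldolases Aldoa and Aldoart1, and the enolase Eno4. They were chosen by name, as somatic genes and their counterparts known from sperm, and make up 10 of the 32285 genes in the count tables. Aldoa has a second row in those tables, ENSMUSG00000114515, which stayed below 3 CPM in every germ cell class of the control libraries and was kept apart. CPM are counts-per-million values of UMIs (unique molecular identifiers, each standing for 1 captured RNA molecule).

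In all, 15 DBA/2J males gave 1 testis and 1 library each, with 3 mice in each of 5 groups. Group T had received JQ1, an inhibitor of the bromodomains of BRDT and related proteins, at 50 mg/kg by daily intraperitoneal injection for 3 wk, and was killed directly afterwards at 10 wk of age. Group R had the same course and then 6 wk without drug, and was 16 wk old. VC-T and VC-R had received the vehicle, DMSO in hydroxypropyl-β-cyclodextrin, and matched T and R in age, and UC mice were untreated and 15 wk old. T and UC therefore differed in age as well as in treatment, and these cannot be told apart in that comparison.

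Glycolysis splits glucose into pyruvate, and lactate dehydrogenase interconverts pyruvate and lactate. Male germ cells change the genes that encode these enzymes as they mature. Sertoli cells supply lactate to meiotic cells, and the sperm tail later carries a glycolytic chain bound to its fibrous sheath. Ldhc encodes the testis lactate dehydrogenase. Pgk2 is an intronless copy of the X-linked Pgk1, whose chromosome is silenced in meiosis. Gapdhs replaces Gapdh in sperm, Aldoart1 is a retrogene of Aldoa, and Eno4 encodes an enolase of the sperm tail.

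Libraries held 9673587 to 98724982 UMIs. After filters, 3232 spermatogonia-like and 14061 spermatocyte-like cells, 24332 of the spermatid-like class and 22982 of the spermatozoa-like class received names from marker genes, none of which was a member, and members were left out of the clustering. The names rest on transcripts alone. The spermatogonia-like class joined 2 clusters, cluster 17 (2136 cells, with Crabp1 and Dmrt1 among its leading genes) and cluster 23 (1096 cells), which was led by Sdk1, Prss50 and Rad51ap2 and also by Stra8 and Meiob, genes of entry into meiosis. Spermatocyte-like cells made up 49.2% to 53.8% of the T libraries and 6.53% to 18.3% of the control libraries, and spermatozoa-like cells at most 0.165% of T libraries against 25.8% to 59.1% of controls. The library VC-T 1 stood with T, with 42.7% spermatocyte-like and no spermatozoa-like cells. It was left out of the tests, as the methods of the study did too. "Control libraries" below are the other 8 (UC 1 to 3, VC-R 1 to 3, VC-T 2 and 3). At most 46 cell barcodes were shared by 2 libraries.

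The members lie on 6 chromosomes (GRCm38/mm10, GENCODE vM21). Ldha (chr7:46841475-46855627, plus strand) and Ldhc (chr7:46861203-46878142, plus strand) are neighbours with 5575 bases between them. Pgk1 lies at chrX:106187100-106203699 on the plus strand, and Pgk2 at chr17:40207015-40208640 on the minus strand in 1 exon. Gapdh lies at chr6:125161715-125166467 and Gapdhs at chr7:30729775-30743681, both on the minus strand. Aldoa (chr7:126795234-126800751) and the single-exon Aldoart1 (chr4:72850583-72852634) are on the minus strand, as is Ldhb (chr6:142490249-142507957), whereas Eno4 (chr19:58943425-58971421) is on the plus strand. Antisense genes overlap Gapdhs, and Gapdh, Aldoa and Eno4 overlap a gene on the opposite strand. Of the 90-base stretches in the last 500 bases of each transcript, 56.6% of those of Gapdh and 13.2% of those of Ldhb also occur in pseudogenes that the count tables do not list, so counts of these genes are less certain. Ldha shared 2.32% and the other members none.

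The promoters of Ldha with Ldhc and of Pgk1 with Pgk2 are shown. Ldha and Ldhc, which are neighbouring genes, rose together, while Pgk2 rose where Pgk1 was low. Sequences are from RefSeq (GRCm38.p6), 250 bases before to 50 after the start, read 5′ to 3′ on the gene's own strand. Capitals mark matches, on either strand, to the core of the cAMP response element (TGACG), to the Sp1-type box (GGGCGG), to the E-box (CACGTG) and to the motif known as CCAAT box. A TATA box (written TATAAA) and an X-box part (written GTTGCC) were also searched for, and overlapping matches were kept.
Ldha, chr7:46845554-46845853, plus strand: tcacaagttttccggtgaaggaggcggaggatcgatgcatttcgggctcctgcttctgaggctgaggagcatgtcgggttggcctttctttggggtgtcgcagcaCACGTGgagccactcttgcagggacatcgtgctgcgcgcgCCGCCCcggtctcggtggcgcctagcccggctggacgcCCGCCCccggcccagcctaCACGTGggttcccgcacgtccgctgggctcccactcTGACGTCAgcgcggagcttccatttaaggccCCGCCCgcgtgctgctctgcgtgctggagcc
Ldhc, chr7:46861013-46861312, plus strand: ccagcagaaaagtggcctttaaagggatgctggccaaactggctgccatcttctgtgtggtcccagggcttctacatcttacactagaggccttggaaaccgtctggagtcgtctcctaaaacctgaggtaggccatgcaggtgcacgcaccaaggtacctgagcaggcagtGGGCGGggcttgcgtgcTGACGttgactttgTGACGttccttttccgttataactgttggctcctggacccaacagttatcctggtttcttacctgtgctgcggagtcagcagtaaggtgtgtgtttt
Pgk1, chrX:106186850-106187149, plus strand: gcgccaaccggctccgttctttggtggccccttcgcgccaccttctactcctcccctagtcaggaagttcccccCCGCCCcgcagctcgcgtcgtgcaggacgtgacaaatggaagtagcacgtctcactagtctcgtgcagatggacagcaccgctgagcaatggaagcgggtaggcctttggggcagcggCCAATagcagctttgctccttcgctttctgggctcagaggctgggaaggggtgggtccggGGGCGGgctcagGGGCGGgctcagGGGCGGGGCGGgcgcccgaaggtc
Pgk2, chr17:40208560-40208859, minus strand: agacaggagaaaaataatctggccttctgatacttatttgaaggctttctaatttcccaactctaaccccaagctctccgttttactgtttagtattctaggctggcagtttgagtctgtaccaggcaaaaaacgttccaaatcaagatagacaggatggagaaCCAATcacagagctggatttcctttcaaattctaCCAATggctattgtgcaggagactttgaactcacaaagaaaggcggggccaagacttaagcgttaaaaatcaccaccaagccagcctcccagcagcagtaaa

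TGACG was found in both dehydrogenase promoters, as the palindrome TGACGTCA in Ldha and at 61 and 47 bases before the start in Ldhc. It occurs in 20.8% of 32851 promoters of this length. The Ldha window also held CACGTG at 145 and 48 bases before the start, a motif of 7.15% of all promoters that was not matched in any other member searched. No promoter of Aldoart1 was available, so that gene was not searched. RefSeq also lists a second start for Ldha, Ldhc and Gapdhs, and in those second windows TGACG was matched 1 time for Ldha, 143 bases before the start, and 0 times for Ldhc and Gapdhs. The Pgk1 window held 5 Sp1-type boxes and 1 CCAAT box, and the Pgk2 window 2 CCAAT boxes and no Sp1-type box, with GGGCGG in 35.7% and CCAAT in 37.4% of all promoters. In the windows shown, GC was higher for Ldha (67.3%, 30 CpG) and Pgk1 (66.7%, 24 CpG) than for Ldhc (53.3%, 9 CpG) and Pgk2 (43.0%, 4 CpG). The median over all promoters was 52.7% and 7.0 CpG. The second windows did not differ this way in GC, with Ldha at 56.7% (13 CpG) and Ldhc at 57.3% (3 CpG). Gapdh was at 56.7% (12 CpG) and the first Gapdhs window at 55.7% (4 CpG). Among the other members, TGACG was matched in Gapdhs 38 bases after the start, and GTTGCC (12.5% of promoters) in Eno4 38 bases and in the first of 3 Aldoa windows 151 bases before it. No match says only that these letters are absent from this window.

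Levels were first described in the 8 control libraries, as CPM of the summed cells of a class, mean ± SD over libraries. The libraries count the 3′ ends of RNA, so a level is not divided by gene length. Germ cells were also ordered by pseudotime and divided into 40 bins of equal size, in which Stra8 was highest in bin 1, Sycp3 in bin 2, Ccna1 in bin 13, Acrv1 in bin 22 and Prm1 in bin 34. These levels describe the classes and are not tested between them.

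The lactate dehydrogenases rose with meiosis. Ldhc, the testis gene, stood at 1081 ± 399 CPM in spermatogonia-like cells, rose to 7946 ± 317 in spermatocyte-like cells, and was at 5880 ± 118 and 2760 ± 209 in the spermatid-like and spermatozoa-like classes (n = 8 libraries). Ldha followed the same course at a lower level, with 106 ± 44.0, 1024 ± 69.2, 571 ± 38.6 and 134 ± 15.4 CPM. Both rose into spermatocyte-like cells and declined into spermatid-like cells in all 15 libraries, and over the 40 bins their mean levels had a Pearson r of 0.953 (bins of the same libraries, so a description only). Ldha peaked in bin 7 at 1133 ± 64.7 CPM and Ldhc in bin 8 at 8848 ± 273 CPM. Ldhb, the form that favours lactate use in other tissues, was highest in Sertoli-like (854 ± 252 CPM) and Leydig-like cells (411 ± 205), with 20.3 ± 40.6 in macrophage-like cells and 11.2 ± 5.20 or less in every germ class. Among Ldha, Ldhb and Ldhc, the UMIs of germ cells were thus almost wholly those of Ldhc and Ldha. The lactate dehydrogenase-like gene Ldhal6b, given further below, was not part of this comparison.

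The phosphoglycerate kinases switched from little of one gene to much of the other. Pgk1 reached only 14.1 ± 8.32 CPM in spermatogonia-like and 2.36 ± 0.661 in spermatocyte-like cells, and 97.0 ± 54.6 in Leydig-like cells. It was lower in spermatocyte-like than in spermatogonia-like cells in 15 of 15 libraries, was at its lowest in bin 11 (0.279 CPM), and was again found in spermatid-like cells (8.31 ± 1.55 CPM, highest in bin 22 at 16.3 ± 10.5). Pgk2 rose at each step, from 71.8 ± 21.0 through 174 ± 42.1 and 528 ± 31.6 to 1049 ± 116 CPM in spermatozoa-like cells, with the same order in every library that held the classes. In the last bin it stood at 1601 ± 340 CPM.

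Gapdh was the member with the steepest decline. It fell from 304 ± 87.0 CPM in spermatogonia-like to 24.7 ± 4.21 in spermatocyte-like and 13.8 ± 2.85 in spermatid-like cells, lower at both steps in 15 of 15 libraries, and its mean was 537 ± 63.2 CPM in bin 1. Gapdhs took the opposite course late, with 184 ± 175 CPM in spermatocyte-like, 1201 ± 133 in spermatid-like and 4240 ± 410 in spermatozoa-like cells and 6075 ± 620 in bin 40. Its lowest mean, 69.6 ± 21.2 CPM, was in bin 9, in spermatocyte-like cells.

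Between Aldoa and Aldoart1, most aldolase UMIs did not pass to the sperm gene. Aldoart2 was not part of this comparison, and Aldoa counts were not split by transcript form. Aldoa stood at 64.5 ± 19.1, 38.0 ± 15.3, 131 ± 13.1 and 235 ± 26.7 CPM in the 4 germ classes and at 630 ± 268 in Leydig-like cells. Aldoart1 stood at 6.12 ± 4.86, 7.59 ± 7.14, 89.9 ± 8.43 and 119 ± 16.3 CPM. Both genes rose into spermatid-like cells in all 15 libraries, and in spermatozoa-like cells Aldoa remained the higher of them. Eno4 had a meiotic and early spermatid course of its own, at 24.5 ± 2.68 CPM in spermatocyte-like and 24.1 ± 3.96 in spermatid-like cells but 3.17 ± 0.625 in spermatozoa-like cells. It peaked in bin 14 at 39.1 ± 9.78 CPM and was lower in spermatozoa-like than in spermatid-like cells in 11 of 11 libraries.

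**Figure D1:**
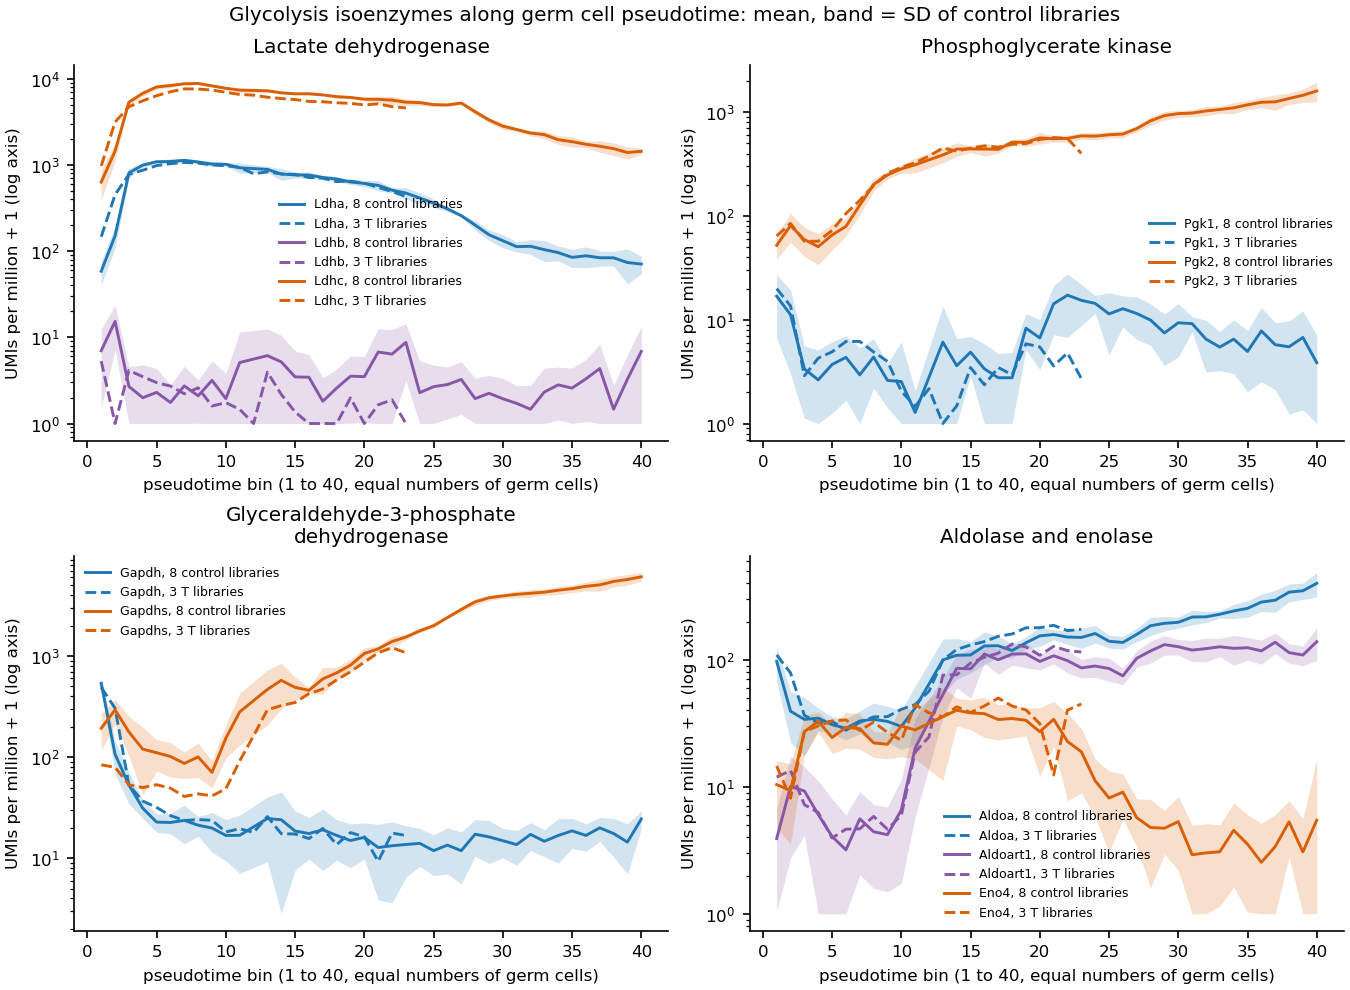
Mean CPM + 1 (log axis) of each member along 40 pseudotime bins, solid lines for the 8 control libraries with a band of 1 SD, and dashed lines for the 3 T libraries, drawn for bins in which every library of the set held at least 10 cells. Ldha and Ldhc peaked in bins 7 and 8, Pgk2 and Gapdhs rose to the last bin, and the dashed T lines end in bin 23, among the spermatid-like bins.

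The sperm genes could be read against the free RNA that droplets carry. In control libraries the spermatid genes Prm1 and Tnp1 were counted in every class, and Prm1 reached 2700 to 5883 CPM in spermatogonia-like and 4445 to 17450 CPM in macrophage-like cells. Ldhc was counted in 80.2% of control spermatogonia-like cells (median 2212 UMIs per cell), and in 92.5% of macrophage-like cells (median 1412 UMIs), which do not use the gene. Gapdhs was counted in 38.3% and 50.75% of these cells and Pgk2 in 14.75% and 26.9%. For all 3 genes the spermatogonia-like share was thus below that in macrophage-like cells and was read as background. Ldha was likewise counted in 18.05% of spermatogonia-like and 31.3% of macrophage-like cells, at 106 ± 44.0 against 303 ± 182 CPM. Its control level in spermatogonia-like cells therefore cannot be told from background either. In the same way Gapdhs stood at 4.93 to 9.72 UMIs per 100 UMIs of Prm1 in spermatogonia-like, 4.42 to 8.50 in spermatocyte-like and 5.18 to 8.97 in macrophage-like cells of controls, 1 ratio across cell types. Gapdhs UMIs in control spermatogonia-like and spermatocyte-like cells were therefore read as background too.

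Isoenzyme shares were taken as the percent of a family's UMIs that came from the sperm gene, in control libraries. A family was made up of members only, so Ldhal6b was not counted among the lactate dehydrogenases, nor Aldoart2 among the aldolases. Ldhc held 90.2% ± 1.05, 88.6% ± 0.470, 91.1% ± 0.465 and 95.3% ± 0.335 of lactate dehydrogenase UMIs from spermatogonia-like to spermatozoa-like cells. Its share in macrophage-like cells was 88.8% ± 0.997 (n = 4 libraries), so the spermatogonia-like value cannot be told from background. Pgk2 held 98.6% ± 0.455 of phosphoglycerate kinase UMIs in spermatocyte-like and 99.3% ± 0.152 in spermatozoa-like cells. Gapdhs held 84.4% ± 5.82 in spermatocyte-like, 98.8% ± 0.348 in spermatid-like and 99.6% ± 0.0456 in spermatozoa-like cells. Aldoart1 held 40.7% ± 1.85 of aldolase UMIs in spermatid-like and 33.7% ± 3.43 in spermatozoa-like cells. In spermatid-like cells the sperm gene thus gave nearly all UMIs of every family but aldolase.

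**Figure D2:**
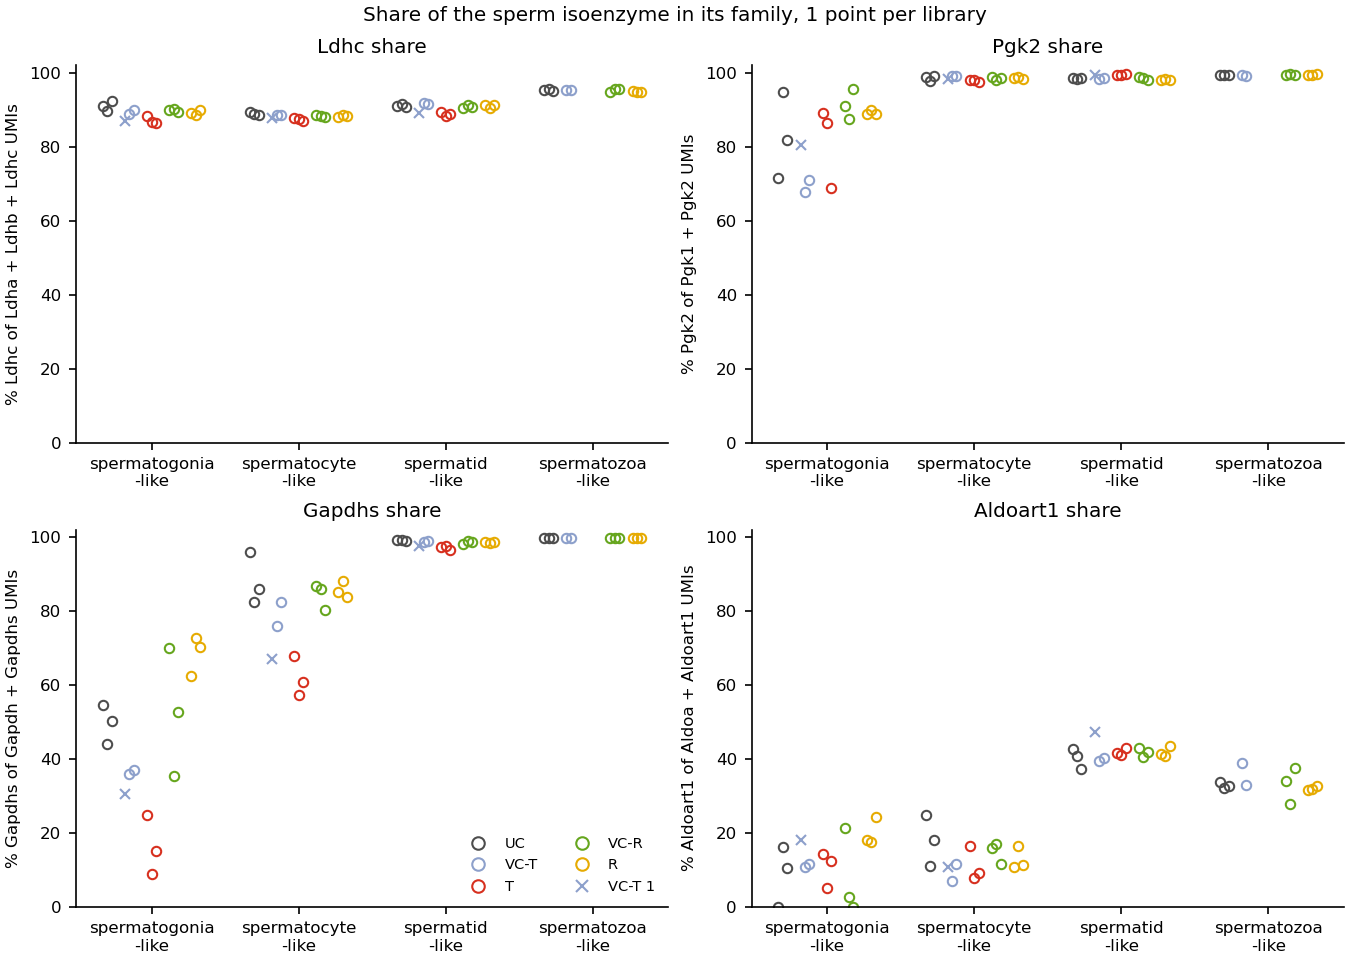
Percent of family UMIs from the sperm gene (y axis, 0 to 100) in each germ class (x axis), 1 point per library and coloured by group, with VC-T 1 as a cross. Ldhc, Pgk2 and Gapdhs were at 88.2% or more in every spermatid-like value, Aldoart1 stood between 37.2% and 47.3% there, and the Gapdhs shares of all 3 T libraries lay below those of the 8 controls in spermatogonia-like and spermatocyte-like cells.

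The first comparison asked what JQ1 changed at the end of dosing. Sums of UMIs per library and class were tested with edgeR's quasi-likelihood test, and a gene was called at a Benjamini-Hochberg adjusted p under 0.05 over all genes and an absolute log2 fold change over 1. T was set against UC and, separately, against VC-T 2 and 3, so both comparisons share the T libraries. T held too few spermatozoa-like cells for a test.

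In spermatogonia-like cells of T, counts of the lactate dehydrogenase pair were higher and those of Gapdhs lower. Control counts of Ldhc and Ldha could not be told from background above, so their fold changes describe the counts rather than the cells. Of 10 members, 6 passed the filter on low counts against UC and 2 were called, where 7.06% of all genes tested were called, and 3 of 8 were called against VC-T (8.45% of all genes). Ldha stood at 307, 240 and 242 CPM in T 1 to 3, at 96.9, 68.5 and 86.9 in UC 1 to 3, and at 76.0 and 80.0 in VC-T 2 and 3. The T values did not overlap with either control group. The fitted log2 fold change was 1.69 ± 0.19 (SE) against UC (edgeR adjusted p = 9.45e-06) and 1.68 ± 0.20 against VC-T (adjusted p = 1.80e-05). Ldhc stood at 2340, 1589 and 1538 CPM in T, at 1097, 724 and 1112 in UC, and at 657 and 850 in VC-T 2 and 3. T again lay above both groups, with a log2 fold change of 1.18 ± 0.21 against VC-T (edgeR adjusted p = 8.17e-04) and 0.92 ± 0.17 against UC (adjusted p = 0.00162), which was below the fold threshold. The call against VC-T was lost without T 1 (0.95) or VC-T 2 (0.99), again below the fold threshold. The VC-R libraries lay nearer to T, with Ldhc at 1907, 980 and 1324 CPM and Ldha at 194, 93.5 and 153.

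Gapdhs stood at 129, 44.4 and 71.1 CPM in T spermatogonia-like cells, against 301, 296 and 357 in UC and 208 and 223 in VC-T 2 and 3. The control counts were read as background above, so the Gapdhs fold changes describe the counts rather than the cells. All T values were below all control values, with log2 fold changes of -1.87 ± 0.25 against UC (edgeR adjusted p = 7.10e-05) and -1.40 ± 0.26 against VC-T (adjusted p = 0.00134). Gapdh, the somatic gene, was at 391 to 456 CPM in T and 250 to 377 in UC and was not called (log2 0.30 ± 0.15, edgeR adjusted p = 0.18). Calls of Ldha, Ldhc and Gapdhs against VC-T were also made when every library gave the same number of cells per pseudotime bin. In T, 94.6% of spermatogonia-like cells were of cluster 17, against 58.1% in UC and 67.5% in VC-T (VC-T 1 included). In the cells of cluster 17 alone, a fit added after the data were seen, Ldha was called against UC (log2 1.90 ± 0.22) and VC-T (1.89 ± 0.21), and so was Ldhc (1.19 ± 0.19 and 1.41 ± 0.25). Gapdhs was called there against UC (-1.94 ± 0.29) but not against VC-T (-1.11 ± 0.34, edgeR adjusted p = 0.0503). With VC-T 1 among the controls none of the 3 was called, and without 5% of free RNA the Gapdhs call against VC-T was lost (log2 -0.84).

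Other RNA moved with these values. Prm1 was at 30.2 to 172 CPM in T spermatogonia-like cells, against 2700 to 5883 in controls, and Gapdhs stood at 75.4 to 147 UMIs per 100 UMIs of Prm1 in T, outside the 4.93 to 9.72 of controls. Within T the same ratio was 66.3 to 176 in spermatocyte-like and 123 to 482 in spermatid-like cells. Sertoli-like cells of T 1 and T 3 differed from these, with Prm1 at 6404 and 4385 CPM and a ratio of 7.28 and 7.03. Leydig-like cells of T held 1156 and 2343 CPM of Ldhc (T 3 and T 1, 16 cells each), beside 1538 to 2340 in T spermatogonia-like cells, and 402 and 368 CPM of Ldha, from only 8 and 11 UMIs. UMIs of Ldhc per UMI of Ldha were 6.35 to 7.61 in T spermatogonia-like and 6.73 to 7.14 in T spermatocyte-like cells, against 8.64 to 12.8 in control spermatogonia-like cells. The 7 spermatocyte markers summed to 1412 to 1712 CPM in T spermatogonia-like cells against 3054 to 5701 in controls, with 1 of 7 above and 3 of 7 below all controls and none at 0. After subtraction of 5% of each library's mean profile, Ldha and Ldhc were still called against VC-T. The subtraction took Ldhc in T 1 to 3 only from 1880, 788 and 584 UMIs to 1636, 630 and 473. It therefore does not cover a larger part of free RNA, and the kept calls do not settle the question. How much of the Ldha, Ldhc and Gapdhs differences came from free RNA was not tested beyond that subtraction.

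**Figure D3:**
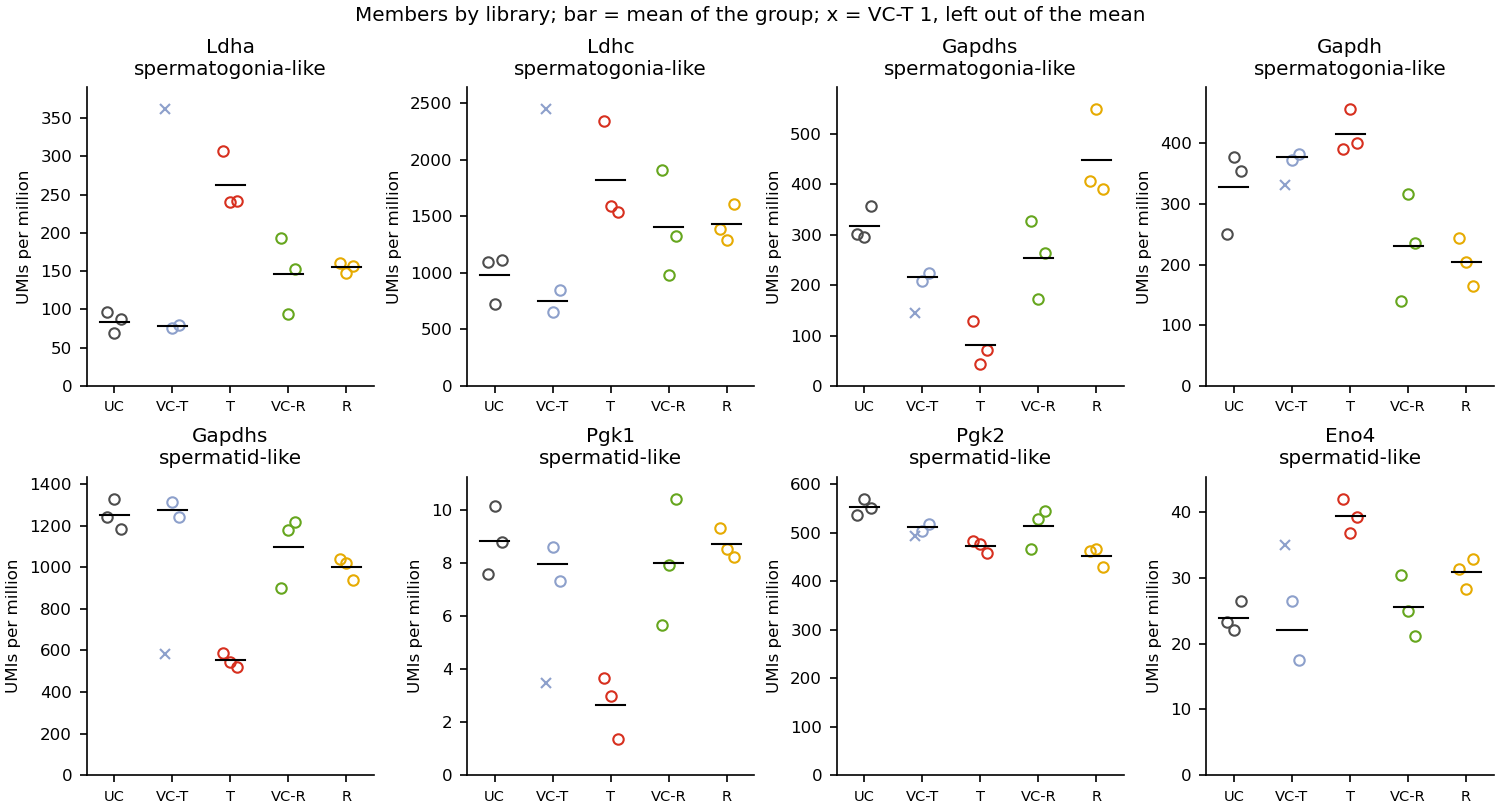
CPM (y axis, from 0) of 4 members in spermatogonia-like cells (top) and 4 in spermatid-like cells (bottom), 1 point per library, bars at group means, VC-T 1 as a cross outside the mean. In spermatogonia-like cells Ldha of T lay at 240 to 307 CPM, above the 68.5 to 96.9 of UC, and VC-T 1 lay above T. In spermatid-like cells Gapdhs of T lay at 521 to 589 CPM, below the 1184 to 1330 of UC.

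In spermatocyte-like cells few members passed the test. None of 9 members was called against UC (1 without UC 1), where 0.797% of all genes were called, and 1 of 10 against VC-T (5.25% of all genes), Gapdhs with a log2 fold change of -1.01 ± 0.21 (edgeR adjusted p = 0.0114). Gapdhs stood at 62.1, 31.9 and 45.7 CPM in T, 82.0 and 82.9 in VC-T 2 and 3, and 608, 118 and 146 in UC, where UC 1 stood far above the rest and Prm1 reached 7997 CPM in that class of controls. Subtraction of 5% of free RNA took Gapdhs from 403 and 339 UMIs to 0 and 1 in VC-T 2 and 3 and left 630, 251 and 170 in T, so no fold change against VC-T could be read from it. The call was lost without T 2 (-0.77), T 3 (-0.99) or VC-T 3 (-0.97). With library size as the only scaling Gapdhs was at -0.81 and not called, Pgk1 was called at 1.14 against VC-T, and the share of called genes that were higher moved from 47.9% to 62.5% against UC and from 69.7% to 83.9% against VC-T. Ldhc was at 6596 to 7066 CPM in T and 7519 to 8005 in UC without overlap, and its log2 fold changes were -0.36 ± 0.07 against UC (edgeR adjusted p = 0.0526) and -0.48 ± 0.10 against VC-T (adjusted p = 0.013). Ldha was at 939 to 1021 CPM in T and 877 to 1036 in UC, and Pgk2 at 136 to 169 and 135 to 267, so these groups overlapped.

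**Figure D4:**
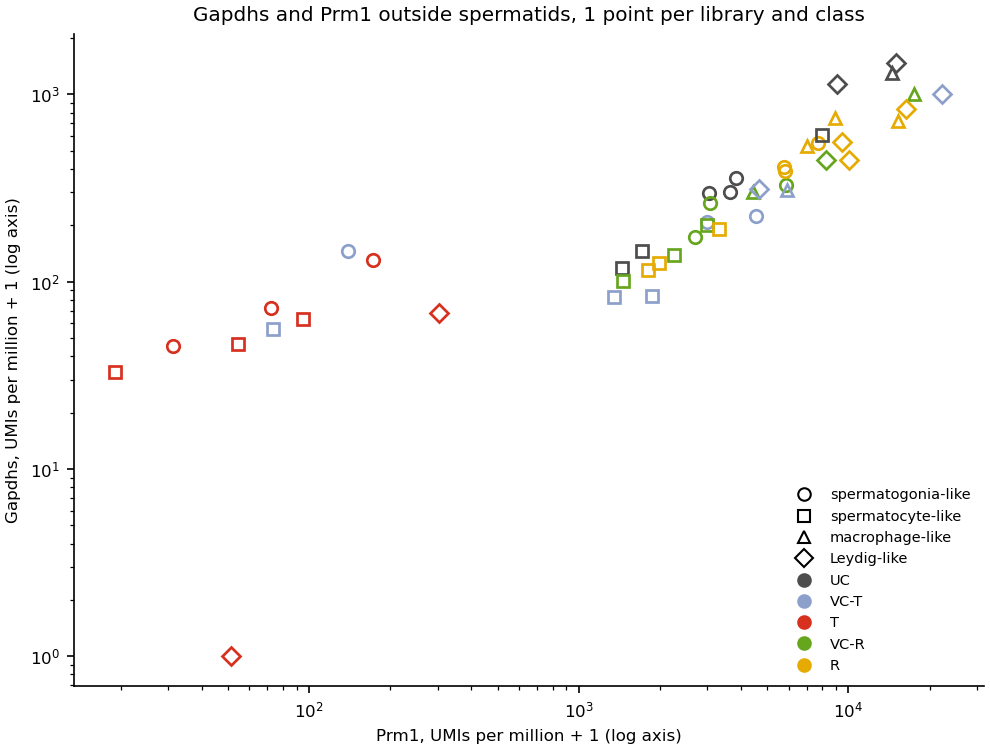
Gapdhs CPM + 1 against Prm1 CPM + 1 (both log axes) in spermatogonia-like, spermatocyte-like, macrophage-like and Leydig-like cells, 1 point per library and class, coloured by group. Control and R points lie along 1 line at 4.42 to 12.6 Gapdhs UMIs per 100 Prm1 UMIs, and T and VC-T 1 points lie apart at low Prm1. Sertoli-like cells are not drawn, and there the ratio was 7.28 in T 1 and 7.03 in T 3.

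Spermatid-like cells of T had less Gapdhs and Pgk1 RNA. Against UC, 2 of 9 members were called beside 17.0% of all genes, and against VC-T the same 2 of 9 beside 18.8%. Gapdhs stood at 589, 546 and 521 CPM in T, 1242, 1330 and 1184 in UC, and 1313 and 1240 in VC-T 2 and 3. It was below every control library in all 3 T libraries, with log2 fold changes of -1.44 ± 0.08 (edgeR adjusted p = 3.21e-09) and -1.49 ± 0.10 (adjusted p = 9.09e-07). Pgk1, the X-linked gene, stood at 3.66, 2.98 and 1.36 CPM in T (57 UMIs in all) and at 7.58, 10.2 and 8.79 in UC. These groups did not overlap either, with log2 fold changes of -1.81 ± 0.27 against UC (edgeR adjusted p = 6.25e-05) and -1.70 ± 0.30 against VC-T (adjusted p = 0.00118).

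Other members moved by less than the fold threshold. Pgk2 had a log2 fold change of -0.48 ± 0.07 against UC (458 to 482 CPM in T, 537 to 571 in UC, edgeR adjusted p = 2.68e-05), and Ldhc one of -0.37 ± 0.05 (adjusted p = 4.53e-05). Eno4 was higher in T, at 42.1, 36.9 and 39.4 CPM against 23.4, 22.1 and 26.5 in UC, a log2 fold change of 0.46 ± 0.12 (edgeR adjusted p = 0.00581). Ldha was at 668 to 725 CPM in T and 532 to 596 in UC. Its fitted log2 fold change was 0.00 ± 0.06, since TMM scaling shifted T against UC. With library size as the only scaling (an alternative chosen after the data were seen) the median of all genes moved from 0.05 to 0.30 on the log2 scale, and the share of called genes that were higher in T from 15.7% to 39.7% (12.9% to 34.9% against VC-T). Ldha was then at 0.26 against UC, below that median, Pgk2 at -0.22, Ldhc at -0.11 and Eno4 at 0.71, and Gapdhs (-1.18) and Pgk1 (-1.56) were still called. Aldoa, Aldoart1 and Gapdh had adjusted p above 0.05 in both comparisons.

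The spermatid-like cells of T were earlier along the order. Cells in bin 20 or later made up 14.7% to 19.1% of them in T, 12.7% in VC-T 1 and 40.1% to 58.0% in controls, and the 4 spermatozoa markers summed to 2365 to 2501 CPM in T against 3548 to 4745 in controls, with 4 of 4 below all controls and none at 0. When every library gave the same number of cells in each bin, no member was called in spermatid-like cells in either comparison. Gapdhs then had a log2 fold change of -0.44 against UC (edgeR adjusted p = 7.33e-05) and -0.47 against VC-T, Pgk1 one of -1.18 against UC (adjusted p = 0.12), Pgk2 one of -0.18 and Eno4 one of 0.17 (both adjusted p above 0.05 in edgeR). Within single bins Gapdhs was at 424 ± 33.6 CPM in T and 457 ± 32.0 in controls in bin 16, and at 1208 ± 123 and 1391 ± 183 in bin 22. Pgk1 was at 3.79 ± 4.46 CPM in T and 16.3 ± 10.5 in controls in bin 22.

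**Figure D5:**
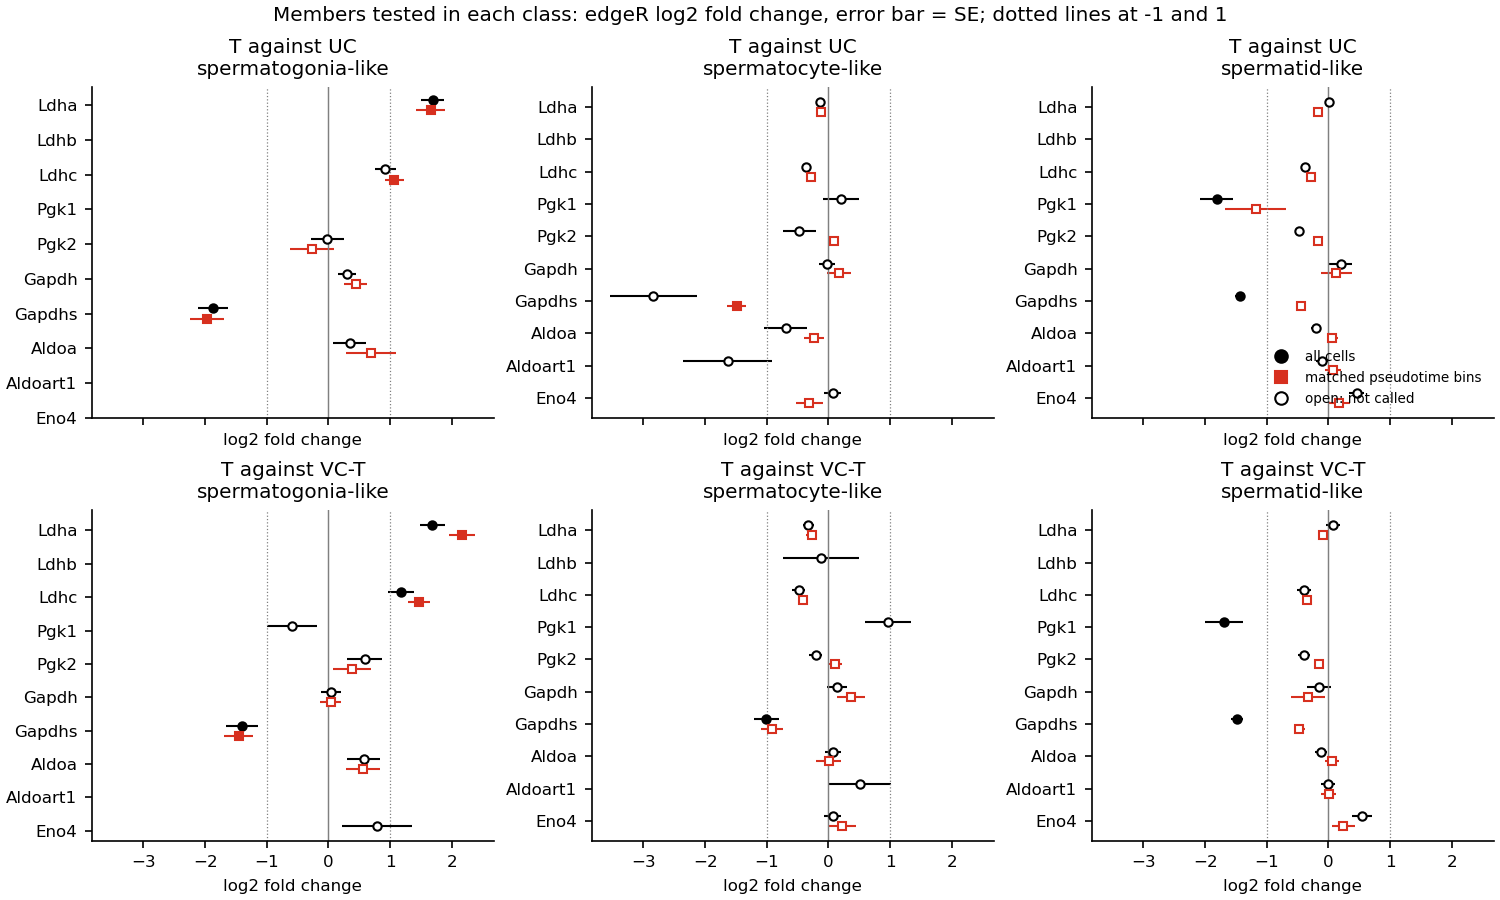
edgeR log2 fold change with SE (x axis) of the members tested in 3 classes, T against UC (top) and T against VC-T (bottom), black for all cells and red for equal cell numbers per pseudotime bin, filled where called. The spermatid-like Gapdhs change shrank from -1.44 to -0.44 against UC with matched bins, and the spermatogonia-like changes of Ldha and Gapdhs were called with and without matching.

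The share of the sperm isoenzyme was then compared between T and the 5 libraries of UC and VC-T 2 and 3 (exact two-sided permutation test of library means, smallest possible p = 0.0357, 12 shares adjusted together). Gapdhs held 16.3% ± 8.07 (SD, n = 3) of its pair in T spermatogonia-like cells and 44.3% ± 8.20 (n = 5) in controls, 62.0% ± 5.36 against 84.5% ± 7.27 in spermatocyte-like cells, and 97.1% ± 0.587 against 99.0% ± 0.229 in spermatid-like cells. All 3 differences had the smallest exact permutation p, 0.0357, and an adjusted p of 0.0612, so none passed the adjustment. Ldhc held 3.25, 1.43 and 2.54 percentage points less of lactate dehydrogenase UMIs in T in these classes, at the same p values. With equal cells per bin the spermatid-like differences shrank to -1.35 points for Ldhc and -0.862 for Gapdhs. Pgk2 held 1.00 point more of its pair in T spermatid-like cells, again with exact permutation p = 0.0357 and adjusted p = 0.0612. It differed by -0.910 points in spermatocyte-like (adjusted p = 0.161 in the exact permutation test) and by 4.04 points in spermatogonia-like cells (adjusted p = 0.740 in the same permutation test). The Aldoart1 share differed by 0.839, -3.40 and 1.74 points, with adjusted p from 0.238 to 0.893 in the exact permutation test. Control Gapdhs counts in spermatogonia-like and spermatocyte-like cells were read as background above, which limits these shares as well. With 5% of free RNA subtracted, the Gapdhs share in spermatocyte-like cells could not be compared, since VC-T 2 and UC 2 were left with 0 and VC-T 3 with 1 Gapdhs UMI.

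The place of the switch was taken as the first of 2 consecutive bins with over 50% of family UMIs from the sperm gene. Ldhc and Pgk2 passed it in bin 1 in all 15 libraries. Bin 1 held only spermatogonia-like cells, whose Ldhc and Pgk2 counts were read as background in controls. It therefore cannot place the switch of these genes. Gapdhs passed it in bin 2 in every control, VC-T 1 and R library and in bins 4, 6 and 5 in T 1 to 3, a difference of 3.0 bins (exact permutation p = 0.0357, adjusted p = 0.107). With 20 wider bins it was bin 2 in all 3 T libraries and in VC-T 2, VC-T 3, UC 2 and UC 3, and bin 1 in UC 1. The Gapdhs counts of controls in these early bins were at the free RNA ratio given above, so bin 2 describes the counts rather than the cells. Aldoart1 passed 50% in 4 of 15 libraries and in none of T, and was not tested.

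The second comparison asked what was left 6 wk after the last dose. With TMM scaling no member was called in any of the 4 germ classes of R against UC or against VC-R. Against UC, 3.91%, 0.0%, 6.63% and 0.663% of all genes were called in the germ classes, taken from spermatogonia-like to spermatozoa-like cells, and against VC-R in the same order 0.0%, 0.0%, 1.94% and 0.0%. Where edgeR called no gene at all, 931 genes in spermatocyte-like cells against UC, and 774, 379 and 1802 in spermatogonia-like, spermatocyte-like and spermatozoa-like cells against VC-R, had an unadjusted p under 0.05, and DESeq2 called none of these comparisons' genes either.

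Levels in R lay close to those of controls. In spermatozoa-like cells, which T lacked, Gapdhs was at 4152, 4039 and 4223 CPM in R, 4254, 4624 and 4576 in UC and 3888, 4794 and 4129 in VC-R. Ldhc was at 2744 to 2831 CPM in R against 2715 to 2931 in UC, and Pgk2 at 1096 to 1251 against 1098 to 1177. Gapdhs in R lay below all UC values and within those of VC-R, whereas R overlapped with UC for Ldhc and Pgk2. Their log2 fold changes against UC were -0.18 ± 0.07, -0.07 ± 0.07 and -0.02 ± 0.07. In spermatid-like cells R was lower than UC by less than the fold threshold in Aldoa (log2 -0.56 ± 0.09, edgeR adjusted p = 2.16e-05), Gapdhs (-0.55 ± 0.08, adjusted p = 8.87e-06), Pgk2 (-0.51 ± 0.08, adjusted p = 1.60e-05) and Ldhc (-0.35 ± 0.07, adjusted p = 2.89e-04). Against VC-R the same 4 genes had log2 fold changes of -0.38, -0.38, -0.42 and -0.36 with adjusted p from 0.0581 to 0.125. With equal cell numbers per bin the Gapdhs change was -0.70 against UC and -0.64 against VC-R. Both comparisons share the R libraries, whose spermatid-like cells held 60.6% to 70.4% in bin 20 or later and whose median depth was 1486 to 2005 UMIs per cell. The clusters with the largest shares of spermatid-like cells differed as well. In R they were clusters 8 and 11 (25.3% and 22.7%, medians of 1596 and 1536 UMIs over all cells of the cluster). In UC they were clusters 14 and 2 (28.4% and 18.8%, medians of 7141 and 2753 UMIs). The part of depth and cluster in these differences was not tested.

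In spermatogonia-like cells of R, Ldha stood at 161, 148 and 156 CPM, above the 68.5 to 96.9 of UC and within the 93.5 to 194 of VC-R. Its log2 fold change was 0.89 ± 0.16 against UC (edgeR adjusted p = 5.92e-04) and 0.12 ± 0.21 against VC-R (adjusted p = 0.91). Gapdhs was at 407, 549 and 390 CPM, above all UC values, with Prm1 at 5759 to 7708 CPM in the same cells. Isoenzyme shares of R against the 6 libraries of UC and VC-R had adjusted p of 0.381 or more in 16 exact permutation tests, the largest difference being 17.4 points more Gapdhs in spermatogonia-like cells (68.5% ± 5.41 against 51.1% ± 11.6, exact permutation p = 0.0476).

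Whether the JQ1 effect itself differed between the end of dosing and 6 wk later was tested as an interaction of treatment and time (T against VC-T, minus R against VC-R, called on the edgeR adjusted p alone). In spermatogonia-like cells 3 of 10 members were called beside 3.22% of all genes, with Gapdhs at -2.22 ± 0.38 (adjusted p = 0.00155), Ldha at 1.57 ± 0.30 (adjusted p = 0.00415) and Ldhc at 1.18 ± 0.32 (adjusted p = 0.0445) on the log2 scale. In spermatocyte-like cells none of 10 was called, beside 1.78% of all genes, of which 23.9% were positive (58.5% with library size as the only scaling). In spermatid-like cells 5 of 10 were called beside 40.2% of all genes, a share near the background. These were Gapdhs (-1.01 ± 0.21), Pgk1 (-1.47 ± 0.39), Eno4 (0.61 ± 0.21), Ldha (0.56 ± 0.17) and Ldhb, which had very few UMIs (-3.63 ± 0.83). In cluster 17 alone Ldhc was lost from these calls (1.51, edgeR adjusted p = 0.0717). Without VC-T 2 the spermatogonia-like count was 1, with Ldha (adjusted p = 0.0516) and Ldhc (adjusted p = 0.328) lost in edgeR, and the spermatid-like count 3. With VC-T 1 among the controls no member was called in spermatogonia-like or spermatid-like cells, and with matched bins none in spermatid-like cells.

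Other genes of glycolysis and lactate transport were counted from a list of 34. In T spermatogonia-like cells 3 of 16 tested were higher than in UC and none lower, beside 7.06% of all genes called, 329 higher and 224 lower. These were Ldhal6b, a lactate dehydrogenase-like retrogene (log2 1.11 ± 0.19, edgeR adjusted p = 6.33e-04), Slc16a7, a monocarboxylate carrier (1.17 ± 0.32), and Slc2a5, a fructose carrier (1.077 ± 0.31). Against VC-T, 6 of 22 were higher and none lower (8.45% of all genes, 641 higher and 228 lower), led by Ldhal6b (1.66 ± 0.22), Slc2a3, a glucose carrier (1.195 ± 0.19), and the phosphoglycerate mutase Pgam2 (1.27 ± 0.24). The mean level of Ldhal6b was 378 CPM in T, against 175 for UC and 114 for VC-T. How much of these differences came from free RNA was not tested for the listed genes.

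In T spermatid-like cells the listed genes that passed were lower, as were most called genes (1923 of 2282 against UC and 2388 of 2742 against VC-T). Against UC these were 4 of 21, near the 17.0% of all genes, among them the glucose-6-phosphate isomerase Gpi1 (mean 20.1 CPM in T and 136 in UC, log2 -2.93 ± 0.16, edgeR adjusted p = 4.42e-09), the pyruvate kinase Pkm (28.3 and 64.4 CPM, -1.43 ± 0.12) and the monocarboxylate carrier Slc16a1 (-1.65 ± 0.37). Against VC-T they were 5 of 22, beside 18.8% of all genes, which included the hexokinase Hk2. In spermatocyte-like cells no listed gene was called in either comparison (0 of 19). The 21 listed genes had a median log2 fold change of -0.04 against UC in spermatid-like cells, beside 0.05 over all genes tested. In R, 1 of 20 was called against UC in spermatogonia-like cells (Slc16a7, 1.01 ± 0.27), beside 3.91% of all genes, and none in any other class or against VC-R.

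The genes most like each sperm member along the order were named from the UC and VC-R libraries (Pearson r of log2(CPM + 10) over 40 bins, which share libraries and depth). Gapdhs ran closest to Akap4, which encodes the main scaffold of the fibrous sheath (r = 0.997), and to 4933411K16Rik and 1700029H14Rik (both r = 0.997). Ldhc ran with Ybx3, Dkkl1 and Cetn1 (r = 0.976 to 0.977), and Pgk2 with Dnajb4, Lrrc28 and the hexokinase Hk1 (0.961 to 0.970). Aldoart1 ran with Gm35554, Ddi1 and Tex48 (0.9901 to 0.993), and Eno4 with Maats1, Trim27 and Ccdc146 (0.971 to 0.972).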

How the data were processed

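The authors deposited raw UMI counts per gene and cell for 15 libraries of 10x 3′ single-cell RNA sequencing. Per the labels these were made with Cell Ranger 3.0.0 on mm10, whereas the file headers name Cell Ranger 7.0.0, and whether intronic reads were counted was not given in the sources used here. The study's ambient RNA correction is not in these counts.

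A cell was kept if it had at least 500 genes and 1000 UMIs, of which under 30% were mitochondrial, and if its Scrublet score was not among the top 5.4% of its library. Cells were clustered with scanpy 1.11.5 (2000 variable genes without the members, 30 components, 20 neighbours, Leiden resolution 1.2, seed 1). Cell types were named from fixed marker lists and germ cells ordered into 40 bins. UMIs were summed per library and class with at least 10 cells. Sums were tested with edgeR 4.0.16 (R 4.3.3, TMM, filterByExpr, quasi-likelihood test, Benjamini-Hochberg adjustment), and shares with exact two-sided permutation tests (scipy 1.17.1). Libraries are single mice, so p-values measure the spread between mice. Same-class replicate libraries differed by 1.18 to 76.8 times the sampling variance (chi-square per degree of freedom, 55 pairs), so none was counted as a duplicate.

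On simulated counts for T against UC, edgeR recovered 98.9% of genes changed by 1.5 on the log2 scale in spermatid-like and 94.8% in spermatogonia-like cells (13074 and 7563 genes). For the interaction in spermatid-like cells (15351 genes) it recovered 73.5%.

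Alternatives were DESeq2 1.42.0, other size factors, no filter, a replicate block, each library left out, VC-T 1 included, other controls, 5% of the library profile subtracted, cells of at least 2000 UMIs, Leiden resolution 0.8, equal cells per bin (at least 5), 20 bins and a switch at 25%. Scaling by library size alone and cells of the larger spermatogonia-like cluster alone were added after the data were seen. The members, gene lists and tests were chosen with earlier results of these data known. All members were named in each comparison, up to 4 called genes per direction from the list of 34, and the 3 genes most like each sperm member along the bins. Protein sequences were not used here, and values of 1 listed gene are not reported here.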

Additional observations from a re-analysis of the deposited data

Results flagged for a closer look

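The edgeR interaction test called 8 gene and class pairs as differing between the end of dosing and 6 wk later. In spermatogonia-like cells (3.22% of all genes called) the difference of log2 fold changes was -2.223 for Gapdhs, 1.573 for Ldha and 1.178 for Ldhc. In spermatid-like cells (40.2% of all genes called) it was -3.625 for Ldhb, -1.011 for Gapdhs, 0.5612 for Ldha, 0.6051 for Eno4 and -1.474 for Pgk1. These values rest on 2 VC-T libraries. With VC-T 1 among the controls none of the 8 was called, and with matched bins none in spermatid-like cells.

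The library VC-T 1, labelled as vehicle and left out of the tests, held 361.5 CPM of Ldha and 2446.0 CPM of Ldhc in spermatogonia-like cells, above all 8 control libraries (at most 194 and 1907 CPM) and above all 3 T libraries (at most 307 and 2340 CPM). Its Prm1 level in these cells was 139 CPM, within the 30.2 to 172 CPM of T.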

How the results depend on the processing

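Among counts of members called, 141 stayed within 1.5 times the first value and 30 did not when no library was left out. With matched bins, 0 members were called in spermatid-like cells in either T comparison and in the interaction, where Ldha turned to -0.0359, Pgk1 to 0.262, Gapdhs to 0.2393 and Eno4 to -0.06584. Matched bins gave 1 in spermatocyte-like cells against UC and 0 against VC-T. With VC-T 1 included, counts were 0 in the 3 classes against VC-T and in the spermatogonia-like and spermatid-like interaction. With 5% of free RNA subtracted, Gapdhs in spermatocyte-like cells against VC-T came out at 7.933 (2 members called), a ratio over 0 and 1 UMIs left in VC-T that is no measured reversal, R against UC gave 1 in spermatogonia-like cells (Ldha), and the interaction gave 1, 1 and 3 in spermatogonia-like, spermatocyte-like and spermatid-like cells. DESeq2 gave 1 in spermatocyte-like cells for T against UC and 1 for the interaction. No filter gave 1 for T against UC, 0 for T against VC-T and 2 for the interaction in spermatocyte-like cells, and 1 for R against VC-R in spermatid-like cells. Leiden resolution 0.8 gave 1 in spermatid-like cells against UC, 0 in spermatocyte-like cells against VC-T, 1 in spermatozoa-like cells of R against UC and 2 in the spermatid-like interaction, and cells of at least 2000 UMIs gave 1 and 3 in the last of these comparisons. In spermatid-like cells of R against UC, library size alone and VC-R as added controls each gave 1 (Ldhb). The causes were not tested.

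Leaving out 1 library gave 0 to 1 members in spermatocyte-like cells of T against UC (1 without UC 1), T against VC-T and the interaction, 0 to 1 in spermatogonia-like (1 without R 1) and spermatid-like cells (1 without R 3 or UC 3) of R against UC, and 0 to 2, 0 to 1 and 0 to 1 in spermatogonia-like, spermatid-like and spermatozoa-like cells of R against VC-R, each time without VC-R 1. In the interaction it gave 1 to 3 in spermatogonia-like and 3 to 7 in spermatid-like cells. Calls of Ldha and Gapdhs in spermatogonia-like and of Gapdhs and Pgk1 in spermatid-like cells of T were made in every such fit, against UC and VC-T.

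The replicate numbers did not pair the libraries (correlations of same-numbered deviations from -0.16 to 0.72 for T and UC). The replicate block gave 2 members in spermatocyte-like cells against UC, Gapdhs (-2.50) and Aldoart1 (-1.5), and lost Ldhc in spermatogonia-like cells against VC-T (0.95). For all genes, DESeq2 called 308 in spermatocyte-like cells of T against UC where edgeR called 96, and 333 against 553 in spermatogonia-like cells. Shares and switch bins kept their side of the threshold under all alternatives run, since none passed the adjustment, but the Gapdhs share difference of T in spermatocyte-like cells came out at 24.998 points with 5% of free RNA subtracted, which left 0 or 1 Gapdhs UMIs in 3 of 5 controls and gives no comparison. Ldhb and Pgk1 in germ cells rest on few UMIs, which limits their precision.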
